A study of Mus musculus with 8 samples.

Results

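Synaptotagmins are membrane proteins of vesicles and the cell surface whose paired C2 domains face the cytosol. In the isoforms that bind calcium, the C2 domains insert into membranes and act on the SNARE fusion machinery when calcium enters the nerve terminal, which couples an action potential to transmitter release. Isoforms differ in calcium affinity, speed and location, so that fast release, slow release, dense-core vesicle release and membrane retrieval use different members, and some members lack calcium binding.

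The 10 synaptotagmin genes described here are Syt1, Syt2, Syt3, Syt4, Syt5, Syt6, Syt7, Syt9, Syt11 and Syt12, of 30175 gene names on the array. Every non-control probe whose gene name in the scanner files equals one of these symbols was taken, which gave 13 probes of the 39429 non-control probes on the array. Syt3, Syt6 and Syt7 had a pair of probes each and the other genes had 1 probe. The samples were striatum of adult female C57Bl/6j mice, 4 wildtype and 4 heterozygous for a gene-trap insertion in Brd2 (Brd2+/-), a BET-family bromodomain protein that binds acetylated histones. All animals came from matings of heterozygous parents in backcross generation 7, genotypes were set by PCR, and no treatment was given other than dissection and freezing. Striatum is the tissue of the descriptions, and the tissue field adds prefrontal cortex. The sources used here do not say if a sample is 1 animal or a pool, so the p-values below reflect only how these samples varied.

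Samples of the same genotype were hybridised in pairs, 1 in Cy3 and 1 in Cy5, to 4 arrays on 1 slide. For both genotypes Cy3 marked replicates 1 and 3 and Cy5 marked replicates 2 and 4. Cy3 was the dimmer channel: 37.7% to 47.6% of spots were well above background there, by the scanner's own call, against 65.9% to 75.5% in Cy5. Brd2 itself read 13.10, 12.98, 12.64 and 12.70 on the normalised log2 scale in wildtype replicates 1 to 4. It read 11.92, 11.83, 12.57 and 11.70 in the heterozygous replicates, a difference of -0.85 (SE 0.19, limma adjusted p = 0.390). A second Brd2 probe, well above background in 5 of 8 samples, differed by 0.29 (SE 0.17, adjusted p = 0.645). The library labelled heterozygous replicate 3 lay beside the lowest wildtype sample, so the fit was also made without it. The Brd2 difference was then -1.03 (SE 0.148, adjusted p = 0.264). Where the insertion lies relative to the probe was not analysed here.

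Striatal identity was checked with 14 markers of projection neurons, the GABAergic output cells of the striatum. All 14 were tested and 13 were well above background in all 8 samples. Markers of cortical excitatory neurons were also present, 4 of 10 in all 8 samples. Both marker lists are set beside the synaptotagmins below.

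None of the 13 synaptotagmin probes passed the threshold of an adjusted p of 0.05 in the comparison of heterozygous with wildtype striatum. Adjusted p-values from limma ran from 0.393 to 0.972. Across all 25324 probes tested, 1 passed, or 0.00395%. That probe belonged to Btbd9, which was higher by 1.82 (SE 0.14, adjusted p = 0.0343) and is named after its values were seen. At an unadjusted p of 0.05, 1 synaptotagmin probe was higher in heterozygous samples and 0 were lower, against 4.06% of all tested probes higher and 4.83% lower. A share of 1 in 13 is near the 8.88% of all tested probes in either direction. In sign alone, 6 synaptotagmin probes were higher and 7 lower. Their median difference was -0.03 on the log2 scale, beside -0.02 over all tested probes. Without the library labelled heterozygous replicate 3, 7 were higher and 6 lower with a median of 0.015, and again 1 was higher and 0 lower at an unadjusted p of 0.05.

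**Figure D1:**
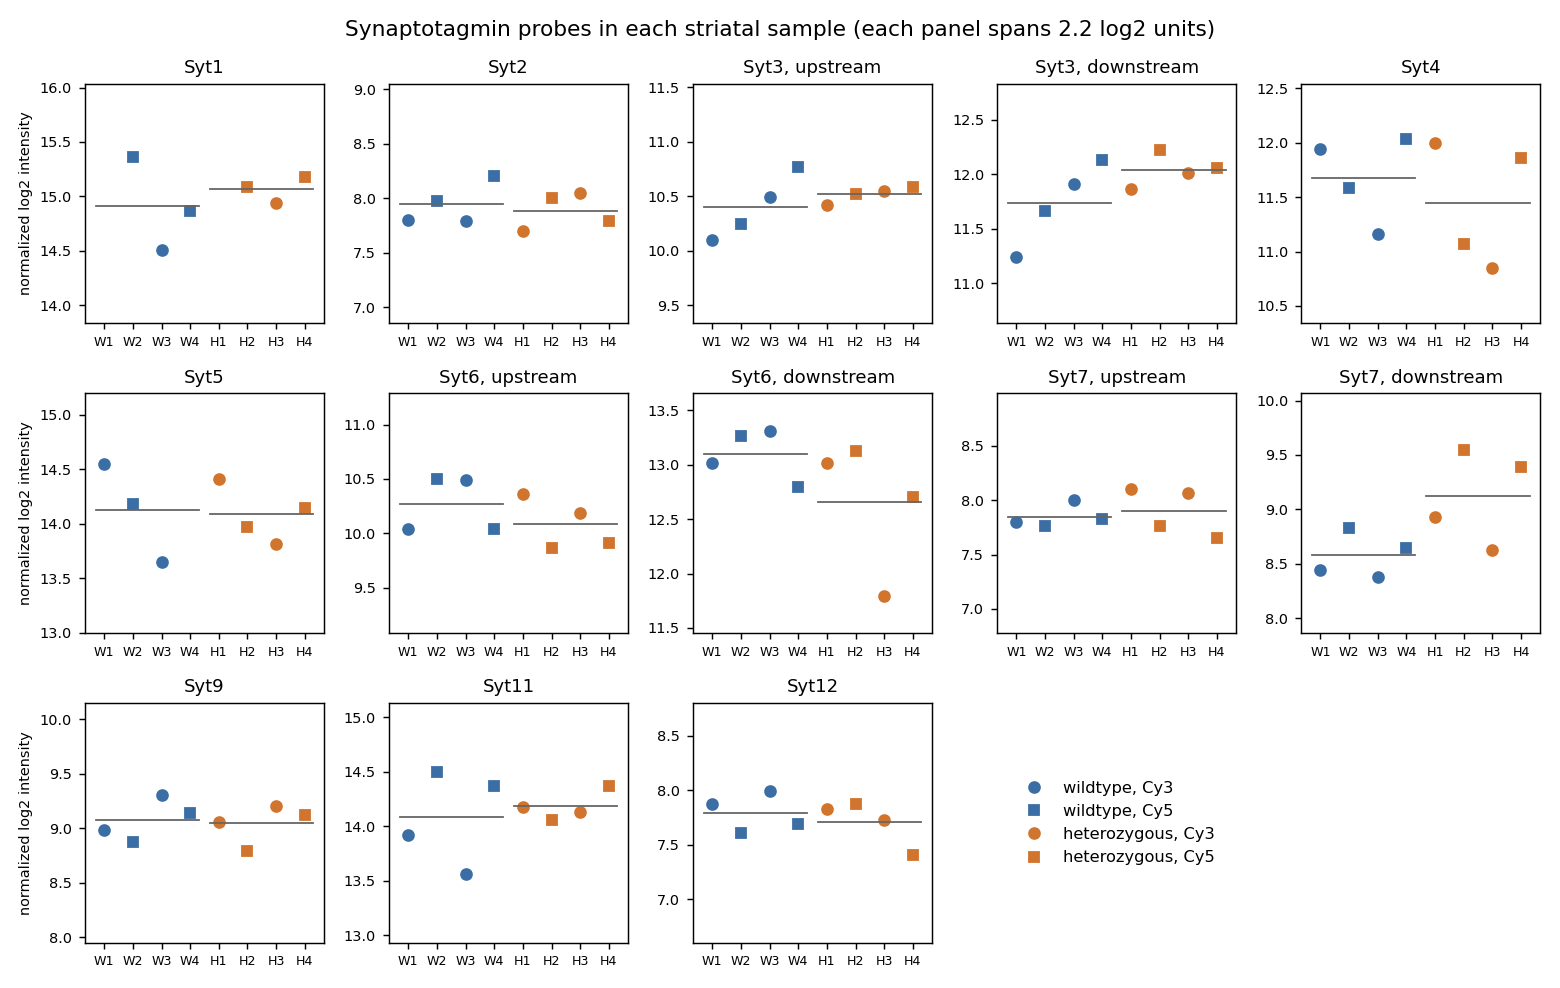
Normalised log2 intensity (vertical axis) of each synaptotagmin probe in the 4 wildtype (W1 to W4, blue) and 4 heterozygous samples (H1 to H4, orange), with Cy3 samples as circles, Cy5 samples as squares and lines at the mean of the points drawn. All panels span the same range, and the heterozygous and wildtype points interleave in most of them. At the downstream Syt7 probe the heterozygous points lie above the wildtype points of the same dye.

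The levels describe which synaptotagmin transcripts were measured well in striatum. They are normalised log2 intensities, and since brightness also depends on the probe, no order of abundance between genes was drawn from them. Of the 13 probes, 9 were well above background in all 8 samples: those of Syt1, Syt4, Syt5, Syt9 and Syt11 and both probes of Syt3 and of Syt6. The probes of Syt2 and Syt12 and the upstream probe of Syt7 were well above background in the 4 Cy5 samples and in no Cy3 sample. That was so for 5918 of the 25324 tested probes. For these 3 probes the Cy3 values lie at the floor of the measurement, and the Cy5 differences are therefore given beside the fitted ones. Their normalised Cy5 values ran from 7.40 to 8.21 and their Cy3 values from 7.70 to 8.11, so the Cy5 values are low as well. The remaining probe, the downstream one of Syt7, was well above background in 6 of 8 samples.

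Syt1 and Syt2 are calcium sensors of fast, synchronous vesicle release, a role also described for a protein named Syt9. The names Syt5 and Syt9 have been exchanged in the literature, so roles given under either name may belong to the other gene. The single Syt1 probe maps to chr10:107935310-107935369 on the minus strand (build mm9, as the files give it). Its wildtype values were 15.36, 14.51 and 14.87 in replicates 2 to 4, and its heterozygous values were 15.08, 14.94 and 15.18. Replicate 1 of each genotype was left out because the scanner marked the spot as an outlier. The groups overlapped, with the highest and the lowest value both in wildtype. The dye-adjusted means were 14.847 ± 0.275 (SD, n = 3) and 15.002 ± 0.130 (SD, n = 3), and the fitted difference was 0.16 (95% interval -0.30 to 0.61, adjusted p = 0.809). The upper bound is a change of 1.52-fold. In Cy3 the difference of 0.43 compares 1 sample of each genotype, wildtype replicate 3 and the library labelled heterozygous replicate 3. Leaving out either of them leaves only the Cy5 difference, which was 0.015. Without wildtype replicate 2 the fitted difference was 0.34.

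Syt2, the fast sensor of hindbrain and spinal terminals and of some inhibitory interneurons, was read by a probe at chr1:136645935-136645994 (plus strand). It gave 7.80, 7.98, 7.80 and 8.21 in wildtype replicates 1 to 4. The heterozygous values were 7.70, 8.01, 8.05 and 7.80. The groups overlapped, and the highest value, wildtype replicate 4, stood apart from the other wildtype samples. The difference was -0.058 (95% interval -0.35 to 0.24, adjusted p = 0.902), and -0.19 in the Cy5 samples. Without the library labelled heterozygous replicate 3 it was -0.16 (adjusted p = 0.608).

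Syt9 had a probe at chr7:114691578-114691637 (plus strand). It was well above background throughout. The wildtype samples read 8.99, 8.88, 9.31 and 9.14, and the heterozygous samples read 9.06, 8.79, 9.21 and 9.13. The groups overlapped almost entirely. The difference was -0.032 (SE 0.131, 95% interval -0.33 to 0.27, adjusted p = 0.952), the smallest in size of the 13 probes.

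Syt7 is the slow, high-affinity sensor, which serves asynchronous release, facilitation and the refilling of vesicle pools, and which also acts in lysosome exocytosis. It was read by an upstream probe at chr19:10522834-10522893 and a downstream probe at chr19:10527150-10527209, both on the plus strand. In the array's transcript these start at bases 1996 and 6312. The upstream probes of Syt7 and of the other genes with a pair of probes are shown here because the pairs let a genotype difference be read at separate places of 1 transcript.
Syt7 upstream: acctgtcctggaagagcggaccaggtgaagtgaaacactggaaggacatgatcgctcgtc
Syt6 upstream: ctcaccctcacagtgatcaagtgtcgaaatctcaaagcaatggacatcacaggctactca
Syt3 upstream: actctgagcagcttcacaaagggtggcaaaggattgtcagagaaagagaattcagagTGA
Each is 60 bases, 5′ to 3′ on the transcript's strand, as the scanner files give it. The capitals mark the last triplet of the Syt3 probe, a stop codon that is the only stop of its forward frame. Of the 3 forward frames, 2 are free of stop codons in the Syt6 probe, 1 in the Syt7 probe and 1 other in the Syt3 probe. No exon or UTR annotation of build mm9 was used here. The longest run of bases that any 2 of the 13 probes share is 8, over 78 pairs and both strands.

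At the downstream Syt7 probe the wildtype samples read 8.45, 8.83, 8.38 and 8.65 in replicates 1 to 4. The heterozygous samples read 8.93, 9.55, 8.62 and 9.39. Within each dye, both heterozygous samples were above both wildtype samples. After the dye difference was removed, every heterozygous value lay above every wildtype value, which held for 1 of the 11 synaptotagmin probes with all 8 values and for 3.38% of probes with all 8 values on the array. The opposite order held for 0 synaptotagmin probes and for 5.22% of the array's probes. Dye-adjusted, the wildtype mean was 8.58 ± 0.13 (SD, n = 4) and the heterozygous mean was 9.12 ± 0.18 (SD, n = 4). The fitted difference was 0.55 (SE 0.128, 95% interval 0.25 to 0.84), or 1.46-fold (1.19 to 1.79). Its unadjusted limma p was 0.00278 and its adjusted p 0.393, so it did not pass the threshold. It ranked 179 by p among all tested probes.

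The difference was 0.37 in the Cy3 samples and 0.73 in the Cy5 samples. The probe was not well above background in wildtype replicate 1 and in the library labelled heterozygous replicate 3, both Cy3. Without the library labelled heterozygous replicate 3 the difference was 0.64 (SE 0.115, adjusted p = 0.272).

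The upstream Syt7 probe lay nearer to background. Its wildtype values were 7.79, 7.76, 7.999 and 7.83, and its heterozygous values were 8.11, 7.76, 8.06 and 7.65. The groups overlapped, and the difference was 0.050 (95% interval -0.20 to 0.30, adjusted p = 0.898). In the Cy5 samples, where the scanner called this probe well above background, the difference was -0.087. Its Cy5 values ran from 7.65 to 7.83 and its Cy3 values from 7.79 to 8.11.

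**Figure D2:**
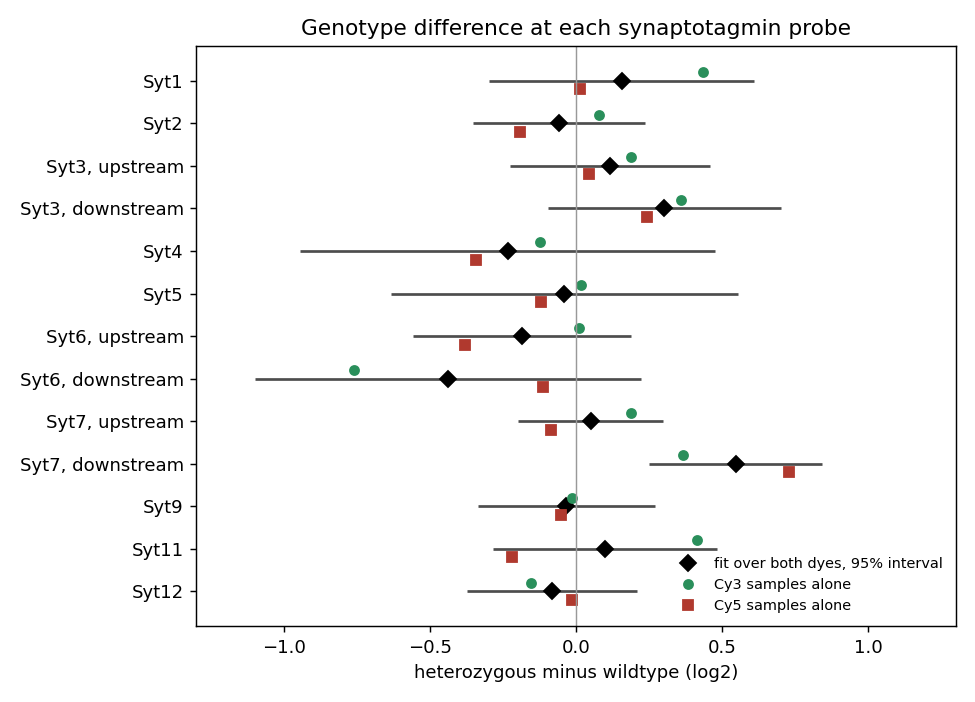
Difference of heterozygous minus wildtype striatum (horizontal axis, log2) at each synaptotagmin probe, as the fit over both dyes with its 95% interval (diamond and line) and as the difference of means within the Cy3 samples (circle) and the Cy5 samples (square). The interval of the downstream Syt7 probe, 0.25 to 0.84, is the only one that leaves out 0, and it is unadjusted for the number of probes tested. For Syt1 the Cy3 circle compares 1 sample of each genotype.

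Syt3, Syt5 and Syt6 are further members with C2 domains of the calcium-binding kind. Syt3 is known from the removal of AMPA receptors at the postsynaptic membrane. Its upstream probe (chr7:51654462-51654521, plus strand, transcript base 1941) read 10.10, 10.25, 10.49 and 10.77 in wildtype, against 10.42, 10.53, 10.55 and 10.58 in heterozygous samples. The heterozygous values fell inside the wildtype range. The difference was 0.12 (95% interval -0.23 to 0.46, adjusted p = 0.821).

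The downstream Syt3 probe (chr7:51655255-51655314, transcript base 2352) read 11.24, 11.67, 11.91 and 12.13 in wildtype. In heterozygous samples it read 11.87, 12.22, 12.01 and 12.06. The groups overlapped, with the lowest values in wildtype replicates 1 and 2, the samples of 1 array. The difference was 0.30 (SE 0.173, 95% interval -0.10 to 0.70, adjusted p = 0.634). Without wildtype replicate 3 it was 0.45 (adjusted p = 0.369).

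Syt5 was read at chr7:4491370-4491429 (minus strand). The wildtype samples gave 14.55, 14.18 and 13.65 in replicates 1 to 3, replicate 4 having an outlier spot. The heterozygous samples gave 14.41, 13.97, 13.82 and 14.15, inside the wildtype range. The difference was -0.040 (SE 0.25, 95% interval -0.63 to 0.55, adjusted p = 0.972). It turned to 0.14 without the library labelled heterozygous replicate 3 (SE 0.277, adjusted p = 0.871).

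Syt6, best known for the acrosome reaction of sperm, had an upstream probe at chr3:103424769-103424828 (plus strand, transcript base 1231). It read 10.04, 10.50, 10.49 and 10.04 in wildtype, against 10.37, 9.87, 10.19 and 9.91 in heterozygous samples. The groups overlapped, with both of the lowest values in heterozygous Cy5 samples. The difference was -0.18 (95% interval -0.56 to 0.19, adjusted p = 0.735).

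The downstream Syt6 probe (chr3:103439038-103439097, transcript base 4351) had the largest difference on the lower side among the synaptotagmin probes. It read 13.02, 13.26, 13.31 and 12.79 in wildtype, against 13.01, 13.12, 11.80 and 12.70 in heterozygous samples. The groups overlapped, and the low value of 11.80 came from the library labelled heterozygous replicate 3. The difference was -0.44 (SE 0.286, 95% interval -1.098 to 0.224, adjusted p = 0.663). Without that library it was -0.14 (SE 0.183, adjusted p = 0.788). Without heterozygous replicate 1 it was -0.64 (adjusted p = 0.420).

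For each gene with a pair of probes, the log2 ratio of the downstream to the upstream probe was taken within each sample and compared between genotypes by a two-sided exact permutation test within dyes. With 36 permutations the smallest p this test allows is 0.0556, so no pair could pass 0.05. Samples were permuted singly, although both samples of an array had the same genotype, so the p-values take array mates as independent. For Syt7 the ratio was 0.65, 1.07, 0.38 and 0.82 in wildtype, against 0.83, 1.79, 0.56 and 1.74 in heterozygous samples. The 2 heterozygous Cy5 samples were highest, and the Cy3 samples of the genotypes overlapped. The mean ratio was larger by 0.50 in heterozygous samples. The upstream Syt7 probe was not well above background in any Cy3 sample, nor the downstream probe in wildtype replicate 1 and heterozygous replicate 3, so the Cy3 ratios are taken against floor values and no test is read from them. The difference in the ratio was 0.82 in the Cy5 samples, where the scanner called both probes well above background, and 0.18 in the Cy3 samples. The upstream probe's Cy5 values did not exceed the range of its Cy3 values, so the Cy5 ratios also rest on a low reading.

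For Syt3 the ratio was 1.14, 1.42, 1.41 and 1.36 in wildtype, against 1.45, 1.70, 1.46 and 1.48 in heterozygous samples. Every heterozygous ratio lay above every wildtype ratio, narrowly so between wildtype replicate 2 and heterozygous replicate 1. How often other probe pairs on the array separate in this way was not counted, so the separation is only described. The mean difference was 0.19 (exact permutation p = 0.0556, the smallest the test can give, adjusted over the 3 pairs 0.167). For Syt6 the mean ratio differed by -0.25 (exact permutation p = 0.667, adjusted 0.667), with the library labelled heterozygous replicate 3 lowest at 1.61 and heterozygous replicate 2 highest at 3.25. Without that library labelled heterozygous replicate 3 the Syt6 ratio differed by 0.058, the opposite sign.

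**Figure D3:**
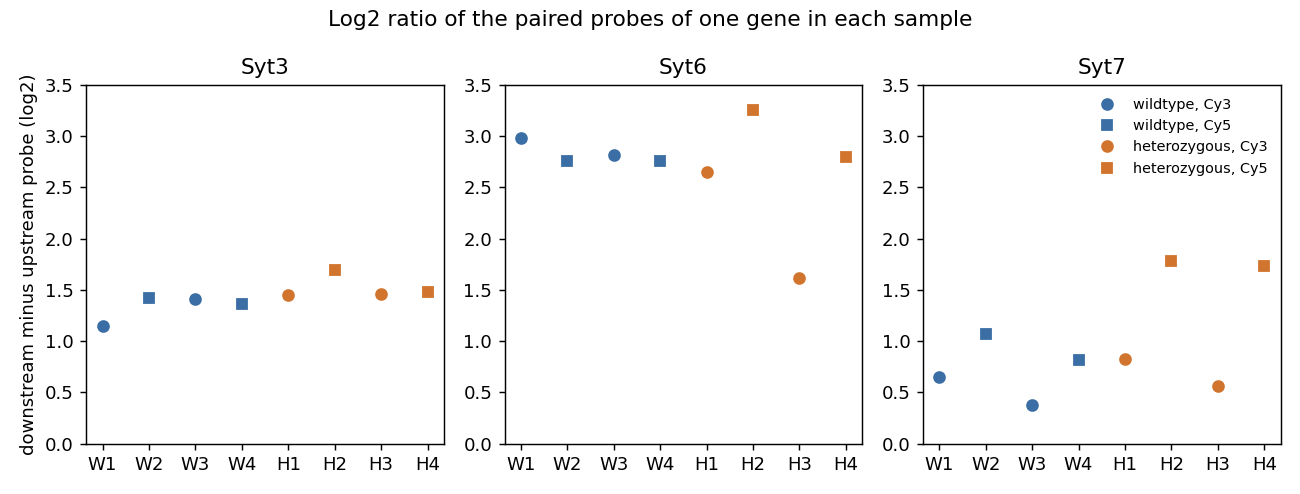
Log2 ratio of the downstream to the upstream probe (vertical axis) of Syt3, Syt6 and Syt7 in each sample, wildtype in blue, heterozygous in orange, Cy3 as circles and Cy5 as squares. The heterozygous Syt3 ratios, 1.45 to 1.70, all lie above the wildtype ratios, 1.14 to 1.42, and the Syt7 ratios are highest in the 2 heterozygous Cy5 samples. The share of other probe pairs on the array that separate by genotype was not counted.

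Syt4 and Syt11 form the branch in which a residue of the first C2 domain is changed and calcium binding there is lost. Syt4 sits on dense-core vesicles, among them those that carry BDNF, and is an activity-regulated transcript. Its probe (chr18:31598394-31598453, minus strand) read 11.94, 11.58, 11.16 and 12.03 in wildtype, against 12.0005, 11.07, 10.85 and 11.86 in heterozygous samples. The groups overlapped, and the values spread widely within both genotypes. The residual SD of 0.530 lay at percentile 93.9 of the 12488 probes well above background in all samples. The difference was -0.23 (SE 0.308, 95% interval -0.94 to 0.48, adjusted p = 0.827), and -0.011 without the library labelled heterozygous replicate 3.

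Syt11, which restrains membrane retrieval and is a substrate of parkin, was read at chr3:88548623-88548682 (minus strand). Wildtype samples gave 13.92, 14.50, 13.56 and 14.37. Heterozygous samples gave 14.18, 14.06, 14.13 and 14.37. The heterozygous values lay inside the wildtype range, and the dyes differed in sign, with 0.41 in Cy3 and -0.22 in Cy5. The fitted difference was 0.099 (95% interval -0.28 to 0.48, adjusted p = 0.870).

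Syt12 lacks calcium binding in both C2 domains and is phosphorylated by protein kinase A on synaptic vesicles. Its probe (chr19:4446641-4446700, minus strand) read 7.88, 7.61, 7.99 and 7.69 in wildtype, against 7.83, 7.88, 7.73 and 7.40 in heterozygous samples. The groups overlapped. The difference was -0.084 (95% interval -0.37 to 0.21, adjusted p = 0.851), and -0.013 in the Cy5 samples.

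The spread between samples differed between the synaptotagmins. The residual SD of the downstream Syt6 probe lay at percentile 91.7 of the probes well above background throughout, beside 93.9 for Syt4 and 82.5 for Syt5. It lay at percentile 26.1 for the downstream Syt7 probe. The other bright probes, those of Syt1, Syt3, Syt9, Syt11 and the upstream probe of Syt6, lay between 28.0 and 58.5. In this fit a difference of a given size was therefore less well resolved for Syt4, Syt5 and the downstream Syt6 probe than for the downstream Syt7 probe. That Syt7 probe was not well above background in wildtype replicate 1 and heterozygous replicate 3. From processed signals its SE was 0.251, nearer to Syt4 (0.353), Syt5 (0.278) and the downstream Syt6 probe (0.296). The widest 95% bound of any synaptotagmin probe was 1.098 in log2 units, at the downstream Syt6 probe.

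The marker lists are set here beside the downstream Syt7 and Syt6 probes. The 10 markers of cortical excitatory neurons were all higher in heterozygous samples. At an unadjusted p of 0.05, 6 of them were higher, against 4.06% of all tested probes, and 0 passed the adjusted threshold. Their median difference was 1.03 (1.09 without the library labelled heterozygous replicate 3). Relative to the wildtype mean, their mean level was -0.23 to 0.62 in wildtype and 0.52 to 1.72 in heterozygous samples. Slc17a7, which loads glutamate into cortical vesicles, was not well above background in wildtype replicates 1 and 3. The downstream Syt7 probe stood at 0.61, 0.72, 0.30 and 0.56 above the wildtype mean in heterozygous replicates 1 to 4, where the cortical markers stood at 1.72, 1.302, 0.95 and 0.52. In wildtype replicate 2, whose cortical markers stood at 0.62, the Syt7 probe stood at 0.00. The part of cortical cells in the Syt7 difference was not tested. In bulk tissue, fewer cells of a type and less RNA per cell cannot be told apart.

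The 14 projection neuron markers were all lower in heterozygous samples. At an unadjusted p of 0.05, 3 of them were lower, against 4.83% of all tested probes, and 0 passed the adjusted threshold. Their median difference was -0.43. Without the library labelled heterozygous replicate 3, 10 were lower and 4 higher, again 3 lower at an unadjusted p of 0.05, with a median of -0.16. Their mean level was -0.11 to 0.13 in wildtype and -1.13 to 0.08 in heterozygous samples. The lowest value, -1.13, was in the library labelled heterozygous replicate 3, where the downstream Syt6 probe stood at -1.21. In heterozygous replicate 2 the markers stood at -0.72 and the Syt6 probe at -0.07. The same library had the highest thalamic (1.45 over 5 markers) and choroid plexus levels (1.87 over 5 markers). The part of these cells in the Syt6 and Syt4 values was not tested.

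**Figure D4:**
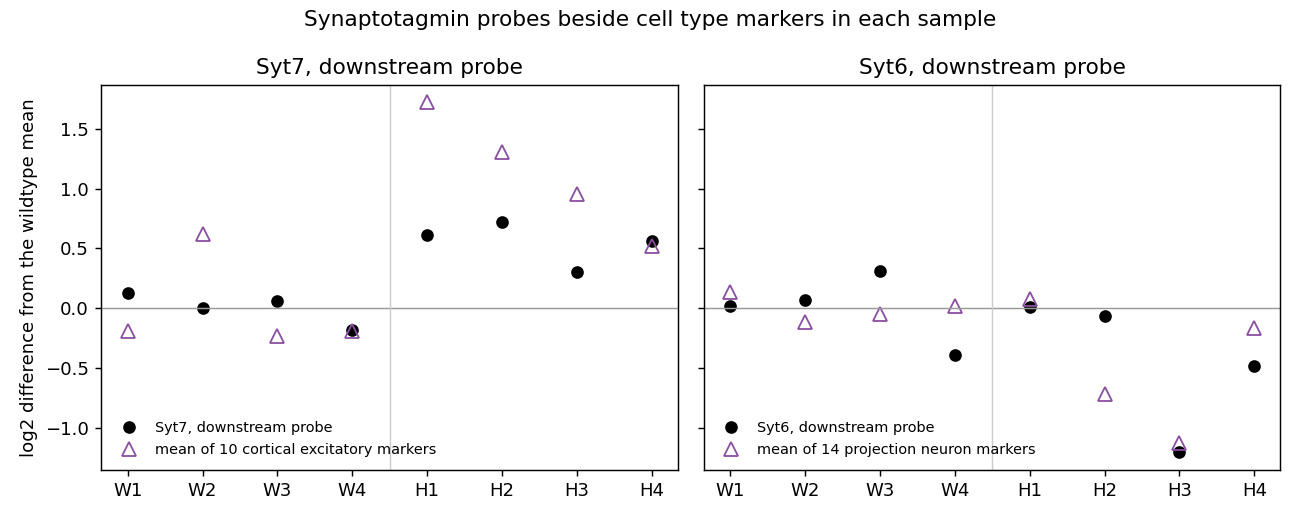
Dye-adjusted log2 difference from the wildtype mean (vertical axis) in each sample, for the downstream Syt7 probe beside the mean of 10 cortical excitatory markers (left) and for the downstream Syt6 probe beside the mean of 14 projection neuron markers (right). The synaptotagmin probes are filled circles and the marker means open triangles; the lowest Syt6 value, -1.21, and the lowest projection neuron mean, -1.13, are in the library labelled heterozygous replicate 3.

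The genes whose profile over the 8 samples was nearest to the downstream Syt7 probe were Tub, BC018242 and Mast4. Their root-mean-square distances in dye-adjusted, mean-centred log2 values were 0.073, 0.080 and 0.096, among 12488 probes well above background in all samples. The profiles nearest to the downstream Syt6 probe were those of Mgll, Ube2k and Bcap29, at 0.120, 0.124 and 0.145. All 8 samples, and the 4 arrays they share, enter each distance.

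Other genes with synaptotagmin-like C2 domains were counted from a list of 19, of which 16 were tested, each by its brightest tested probe. None passed the adjusted threshold. At an unadjusted p of 0.05, 4 were higher and 0 lower, against 4.06% of all tested probes higher and 4.83% lower. In sign 9 were higher and 7 lower, with a median of 0.12 beside -0.02 over all tested probes. Doc2a, a calcium sensor of spontaneous and asynchronous release, read 9.02, 9.91, 9.40 and 9.54 in wildtype and lay higher in every heterozygous sample, at up to 10.45, a difference of 0.81 (SE 0.171, adjusted p = 0.382). Syt13, a synaptotagmin without calcium binding, read 11.62, 13.35, 11.94 and 12.85 in wildtype, against 12.98, 13.83, 13.81 and 13.64 in heterozygous samples, a difference of 1.13 (SE 0.266, adjusted p = 0.396). On the lower side the smallest p belonged to Doc2b, at -0.36 (adjusted p = 0.628), and Syt10, at -0.50 (adjusted p = 0.670). Both had overlapping groups. Without the library labelled heterozygous replicate 3, Doc2a was at 0.68, Syt13 at 0.85, Doc2b at -0.25 and Syt10 at -0.71, and the median of the list was 0.050.

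The partners on which synaptotagmins act, SNARE proteins, complexins, Munc13 and SV2 proteins among them, were counted from a list of 22, of which 20 matched a gene name on the array and 19 were tested. None passed the adjusted threshold in the fit over both dyes. At an unadjusted p of 0.05, 5 were higher and 1 lower, against 4.06% of all tested probes higher and 4.83% lower. In sign 13 were higher and 6 lower, with a median of 0.17. Vamp1 and Stx1a, the vesicle and plasma membrane SNAREs, had the smallest p among those higher, at 1.45 (SE 0.280, adjusted p = 0.374) and 1.095 (SE 0.247, adjusted p = 0.390). Among those lower these were Sv2c, an SV2 protein that binds synaptotagmin on vesicles, at -1.96 (SE 0.547, adjusted p = 0.441), and Unc13c, a Munc13 priming factor, at -0.58 (adjusted p = 0.669). Sv2c read 7.19 and 7.11 in the heterozygous Cy5 samples and 10.32 to 10.84 in the other samples. With Cy5 samples only, Sv2c stood at -3.49 and passed the threshold (limma adjusted p = 0.0141). With Cy3 samples only it stood at -0.43 (limma adjusted p = 0.970). Without the library labelled heterozygous replicate 3, 7 partners were higher and 2 lower at an unadjusted p of 0.05, 0 passed the adjusted threshold and the median was 0.28. Unc13c was then at -0.88, Sv2c at -2.32, Vamp1 at 1.35 and Stx1a at 1.36.

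**Figure D5:**
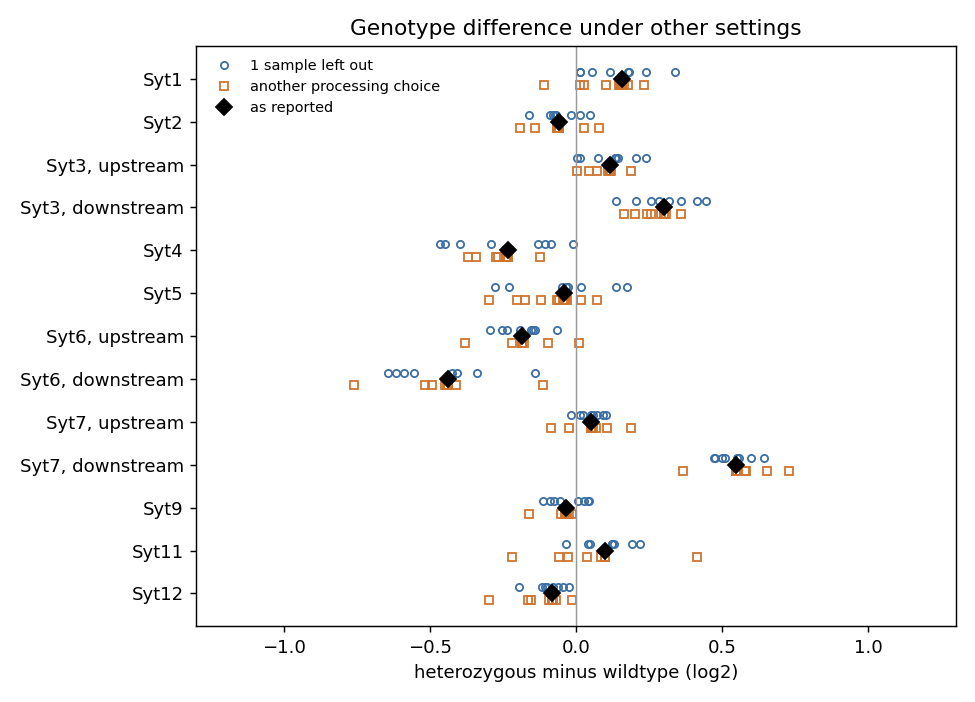
Difference of heterozygous minus wildtype striatum (horizontal axis, log2) at each synaptotagmin probe as reported (diamond), with 1 sample left out (open circles) and under another processing choice (open squares). The downstream Syt7 probe stays between 0.37 and 0.73, and the values of 7 probes fall on both sides of 0.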

How the data were processed

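Per the file headers, Agilent Feature Extraction 10.7.3.1 read linear spot intensities from 1 scan. Both samples of an array share 1 file, and each was read from its own channel. The deposited value table holds a linear ratio for each sample, each column with a median of 1 and a Spearman correlation of 0.997 to 1.000 with the scanner values; it was an alternative only. Background was removed from each spot's mean intensity by normexp (offset 50) against its local background median, control spots were dropped, and loess and Aquantile normalisation was applied in limma 3.58.1 (R 4.3.3). Outlier spots were left out (230 to 978 per sample), none was saturated, and replicate spots were averaged. Probes well above background in at least 4 of 8 samples were fitted by lmFit and eBayes on genotype plus dye, the array being a random block, with Benjamini-Hochberg adjustment over all 25324 probes. Another 14 probes lacked an estimable term. Dye-adjusted values are log2 values with the fitted dye effect removed. Array and genotype cannot be fully told apart, since each array held 1 genotype.

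In simulated data the fit recovered 62% of 100 probes changed by 1 log2 unit and 7% of 100 changed by 0.5, for this comparison with 23852 probes, and it called 9 unchanged probes. The simulated noise was normal and independent in each sample, with no effect of a shared array and no library set apart. These rates therefore do not measure the power of the real comparison. The synaptotagmins, gene lists and markers were chosen with earlier results of these data known. From the lists of related genes and partners, the 2 genes of smallest p in each direction are named. Each gene of these lists and of the marker lists is given by its brightest tested probe, while every synaptotagmin probe is given. The comparison of probe pairs was added after values were seen. Alternatives changed the background correction, normalisation, filter, outlier spots, probe choice, blocks, dye, variance model, threshold and samples included. Gene names and coordinates (mm9) are those of the files.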

Additional observations from a re-analysis of the deposited data

Results flagged for a closer look

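In the wildtype group of the Syt2 probe, replicate 4 stood far from the other samples. Its dye-adjusted value was 8.13, beside 7.88, 7.90 and 7.88 in replicates 1 to 3, and the gap to its neighbour was 0.911 of the group's whole range. Replicates 1 and 3 are Cy3 samples, where this probe lies at the floor of the measurement. In heterozygous replicate 3, also Cy3, the dye-adjusted value was 8.13 as well. Of 23 groups of 4 tested for such a sample, 1 was found, and chance gives about 1 in 20.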

How the results depend on the processing

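No synaptotagmin probe passed the adjusted threshold under any of 24 alternatives, and 282 of 304 probe values kept their direction. Several alternatives change only the filter, the blocks or the variance model. They leave the difference of a probe with a value in every sample unmoved, so part of that share was fixed beforehand. The Syt7 downstream difference ranged from 0.37 to 0.73 with adjusted p from 0.272 to 0.970, and was 0.55 (SE 0.131) with the replicate number as a block. After dye and genotype means were removed, same-numbered samples correlated at 0.40, -0.34, -0.26 and -0.26 for replicates 1 to 4. Same-numbered samples share a dye, and removing those means by itself pushes their correlation towards negative values. These correlations therefore cannot decide whether the numbers pair the samples. Direction turned under these settings, and the cause was not tested. In the deposited value table Syt1 was at -0.11 and Syt11 at -0.060. From processed signals Syt2 was at 0.027, and with outlier spots kept Syt5 was at 0.071. By 75th percentile scaling without loess the upstream Syt7 probe was at -0.025 and Syt11 at -0.028. In Cy3 alone Syt2 was at 0.078, Syt5 at 0.018 and the upstream Syt6 probe at 0.010. In Cy5 alone the upstream Syt7 probe was at -0.087 and Syt11 at -0.22. With 1 sample left out, values ran from 0.015 to 0.34 for Syt1, -0.16 to 0.049 for Syt2, -0.28 to 0.17 for Syt5, -0.018 to 0.10 for Syt7 upstream, -0.11 to 0.044 for Syt9 and -0.034 to 0.22 for Syt11. The difference in the ratio of paired probes was 0.13 to 0.24 for Syt3 and 0.18 to 0.82 for Syt7 under 16 alternatives. For Syt6 it was -0.77 in Cy3 alone and turned to 0.26 in Cy5 alone, and it ran from -0.45 to 0.058 with 1 sample left out.

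The count of all probes past the threshold, 1, became 0 with 75th percentile scaling without loess, the deposited value table, no filter, the brightest probe per gene, the replicate block and Cy3 alone, 2 at an adjusted p of 0.10, and 0 to 1 with 1 sample left out. It stayed at 1 without the library labelled heterozygous replicate 3 and from processed signals scaled to the 75th percentile. In Cy5 alone it was also 1, but the probe was that of Sv2c (-3.49, adjusted p = 0.0141) and not that of Btbd9. Dim Cy3 signal limits Syt2, Syt12 and the upstream Syt7 probe, which were not well above background in that dye.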

Other observations

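The sequence AATAAA or ATTAAA, the canonical signal for cleavage and polyadenylation and its most common variant, occurred on the probe's own strand in 4 of the 13 synaptotagmin probes (Syt5, the downstream Syt6 probe, Syt9 and Syt11). It occurred in 16.7% of all 39429 probes of 60 bases on the array. A match is a description of the probe and not a site shown to be used.

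Over the 11 synaptotagmin probes with a value in every sample, wildtype replicate 1 held the lowest dye-adjusted value at 4 probes, and heterozygous replicate 1 held the highest at 3. The remaining samples held the lowest at 0 to 2 probes and the highest at 0 to 2. No sample was high or low at most synaptotagmins.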
